A study of Homo sapiens with 6 samples.

Results

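The 8 genes described here are imprinted genes, ZDBF2, MEST, PEG10, SGCE, PLAGL1, GRB10, GNAS and PHLDA2, taken by symbol from the 24305 gene symbols of the deposited count table. They were measured by bulk RNA sequencing in DU 145 cells, an established human line of castration-resistant prostate cancer which the series design presents as its model with deficient homologous recombination repair. Talazoparib, an inhibitor of PARP1 and PARP2, was given for 48 h to the cells of 3 libraries. The 3 control libraries are of the same line at 48 h, and their treatment label reads "DMOS", which is read here as DMSO, the usual solvent. The library labels give no dose and do not state whether each replicate was its own culture, so p-values measure no more than how these libraries scatter, and that scatter may be technical. The genes were selected on their measured counts and fold changes between these same groups, that of ZDBF2 above all. Every fold change of the 8 genes is therefore a description, with no test, and supports no statement by itself.

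An imprinted gene is read mainly from the copy inherited from 1 parent, usually because the copies differ in a methylation mark set in the egg or the sperm. Many such genes regulate fetal growth, placental function and nutrient use, and their imprints are often disturbed in tumours. ZDBF2, MEST, PEG10, SGCE and PLAGL1 are known as paternally expressed genes and PHLDA2 as a maternally expressed one, while the expressed copy of GRB10 and GNAS depends on the transcript or tissue. The files hold 1 count per gene symbol, so neither the parental copy nor the transcript start that gave the reads can be told, and in bulk RNA fewer expressing cells and less RNA per cell cannot be told apart.

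Promoter sequences were taken from RefSeq (GRCh38.p14, 250 bases before to 50 after each annotated start), which held 23 starts for 5 of the 8 genes, 2 of ZDBF2, 5 each of MEST, GRB10 and PLAGL1, and 6 of GNAS. Of these, 8 hold TGCCGC or its reverse complement GCGGCA, the hexamer that the imprint maintenance factor ZFP57 is known to bind when methylated, and so do 16.7% of all 35116 promoters in that table. They are 4 starts of MEST and 1 each of ZDBF2, GRB10, GNAS and PLAGL1, so each of the 5 genes has such a start, whichever way its level moved. The 8 are not separate sites, since MEST starts 1 and 2 overlap and share a match, as do MEST starts 4 and 5, so the count is not to be read against that share. ZDBF2 and MEST are shown because they lay lower with talazoparib under every processing tried, and PLAGL1 because a promoter with the same hexamer belongs to a gene whose groups overlapped. Capitals mark the hexamer on either strand, overlapping matches included, and in the first sequence the full cAMP response element TGACGTCA, which was searched after the sequences were seen and stands in 1.85% of all promoters.
ZDBF2 start 1, plus strand, chr2:206274413-206274712: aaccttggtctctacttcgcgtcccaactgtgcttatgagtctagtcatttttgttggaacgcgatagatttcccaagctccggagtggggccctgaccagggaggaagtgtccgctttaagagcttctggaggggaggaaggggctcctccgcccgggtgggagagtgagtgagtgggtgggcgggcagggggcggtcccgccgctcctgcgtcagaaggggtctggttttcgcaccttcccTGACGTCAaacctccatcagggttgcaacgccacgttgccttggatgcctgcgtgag
ZDBF2 start 2, plus strand, chr2:206274760-206275059: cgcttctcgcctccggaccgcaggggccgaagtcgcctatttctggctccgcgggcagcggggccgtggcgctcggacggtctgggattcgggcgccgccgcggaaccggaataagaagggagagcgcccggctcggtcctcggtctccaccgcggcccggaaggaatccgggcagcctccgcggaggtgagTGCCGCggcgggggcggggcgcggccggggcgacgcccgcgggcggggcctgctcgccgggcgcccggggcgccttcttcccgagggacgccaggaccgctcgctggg
MEST start 5, plus strand, chr7:130491835-130492134: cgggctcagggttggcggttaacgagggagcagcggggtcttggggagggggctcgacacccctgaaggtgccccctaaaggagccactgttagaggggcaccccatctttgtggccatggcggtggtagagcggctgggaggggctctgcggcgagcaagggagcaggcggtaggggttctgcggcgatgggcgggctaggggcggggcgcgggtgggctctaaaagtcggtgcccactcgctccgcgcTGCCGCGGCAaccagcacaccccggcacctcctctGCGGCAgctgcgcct
PLAGL1 start 3, minus strand, chr6:144008210-144008509: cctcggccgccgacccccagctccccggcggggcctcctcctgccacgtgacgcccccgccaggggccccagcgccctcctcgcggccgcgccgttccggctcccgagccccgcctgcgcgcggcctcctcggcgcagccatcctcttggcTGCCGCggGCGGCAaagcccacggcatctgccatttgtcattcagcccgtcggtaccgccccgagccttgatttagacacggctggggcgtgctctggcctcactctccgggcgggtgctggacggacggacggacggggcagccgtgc
The second ZDBF2 promoter holds 50 CpG dinucleotides in 300 bases, more than 98.7% of all promoters, and the first holds 18. MEST start 5 holds 25 and PLAGL1 start 3 holds 39, against a median of 14 over all promoters. These are the highest of the 5 starts of each gene, which range from 13 to 25 for MEST and from 2 to 39 for PLAGL1.

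Library totals ran from 39123997 to 39585727 counts. Of 14452 genes tested with edgeR (quasi-likelihood F-test, Benjamini-Hochberg adjusted p under 0.05), 26.8% were higher and 29.9% lower with talazoparib. Fold changes followed the composition of the mRNA, with a median log2 fold change of -0.72 in the decile of lowest GC content and 0.43 in the highest, and of 0.35 in the decile of shortest genes and -0.65 in the longest. Values called trend-removed below come from a fit that takes out this GC and length trend, and the part of the trend in each result was not tested beyond that fit. Of 6 epithelial markers, 2 rose by edgeR's test, the keratin KRT19 to 91.4 ± 8.01 CPM (read counts scaled to library size) with talazoparib, against 41.8 ± 4.35 CPM in controls (SD, n = 3 each; log2 fold change 1.13, 0.56 trend-removed), and CLDN4 to 11.6 ± 1.51 CPM with talazoparib, against 3.53 ± 1.33 CPM in controls (1.71; 1.27 trend-removed). KRT8 (557 ± 31.5 CPM with talazoparib and 583 ± 61.5 CPM in controls), KRT18, EPCAM and CDH1 were not past the test, and KRT8 (-0.37) and KRT18 (-0.33) were lower trend-removed. Of the leukocyte markers, PTPRC and CD3E had a count of 0 in every library, and CD14 rose to 1.86 ± 0.374 CPM with talazoparib, against 0.918 ± 0.0943 CPM in controls (1.02; 0.55 trend-removed, not past the test). Of the fibroblast markers, COL3A1 fell (-0.40; -0.43 trend-removed) and COL1A1 was not past the test. The part of these markers in the results below was not tested. CTNNA1, which PC-3 prostate cancer cells lack, stood at 310 ± 9.65 CPM with talazoparib and 302 ± 5.26 CPM in controls.

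All 8 imprinted genes passed the filter on low counts. In CPM, talazoparib libraries lay wholly below the controls for ZDBF2, MEST, PEG10 and SGCE and wholly above them for PHLDA2, GNAS and GRB10, and for PLAGL1 the groups overlapped. Groups that do not overlap were found for 64.4% of all genes tested, 31.6% with talazoparib higher and 32.8% with talazoparib lower. By edgeR's test 4 of the 8 were lower, 2 higher and 2 not past the threshold, beside 56.7% of all genes called in either direction, and nothing is read from these counts.

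**Figure D1:**
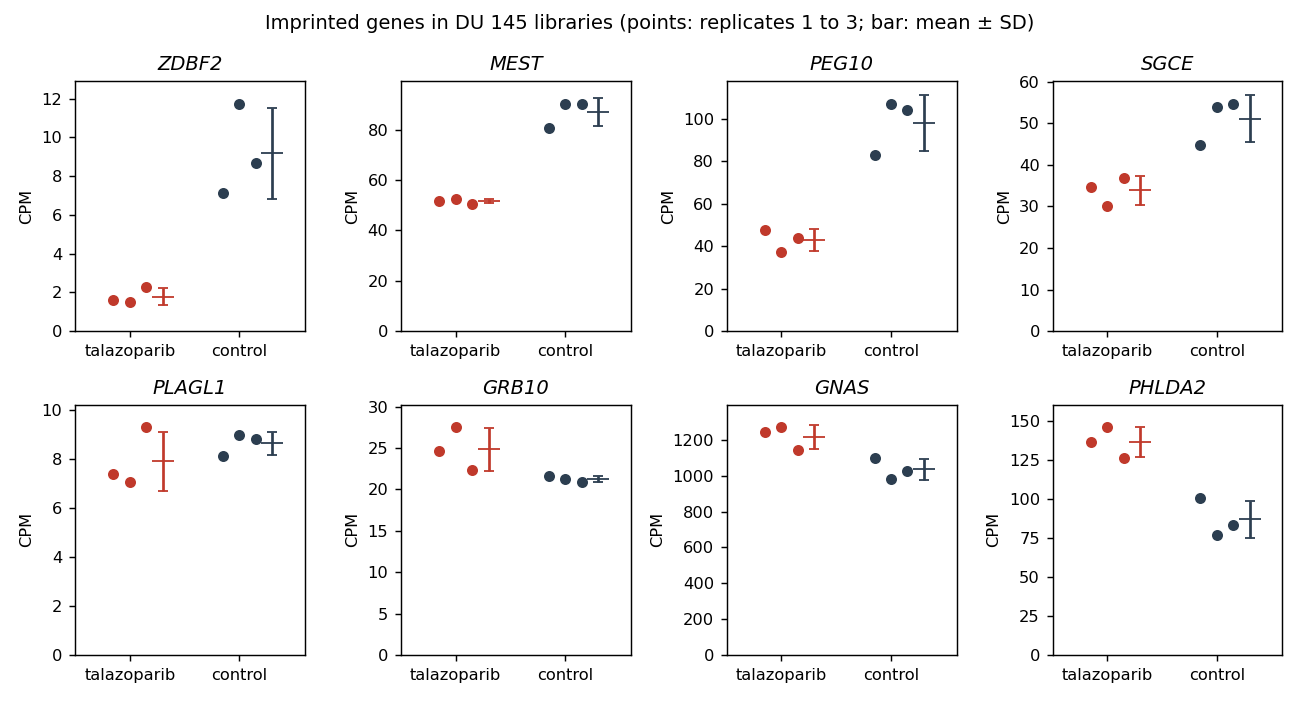
Expression in CPM (linear axes from 0) of the 8 imprinted genes in each library, talazoparib left and control right, with the mean and SD of 3 libraries. ZDBF2, MEST, PEG10 and SGCE lie lower in all 3 talazoparib libraries, PHLDA2, GNAS and GRB10 higher, and the PLAGL1 groups overlap.

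ZDBF2 (chromosome 2, 206274663 to 206314438, GRCh38, GENCODE 29) encodes a zinc finger protein of the DBF4 type and is silenced on the maternal copy. It had 61, 56 and 90 reads, or 1.59, 1.49 and 2.28 CPM, in talazoparib replicates 1 to 3, against 281, 482 and 353 reads, or 7.13, 11.7 and 8.68 CPM, in control replicates 1 to 3. Every talazoparib library lay at less than the lowest control, and control replicate 1 was the lowest of the controls. The log2 fold change was -2.36 ± 0.23 (SE), or 5.13-fold lower, the lowest value of the 8 genes. Its GC content of 38.1% falls in the lowest decile (median log2 fold change -0.72) and its deposited length of 11791 nt in the longest decile (median -0.65). Trend-removed it was -1.35 ± 0.16, and on log2(FPKM + 1), where FPKM is the deposited value per gene length and library size and the added 1 compresses low levels, it was -0.64.

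The 3 genes whose level over the 6 libraries was most like that of ZDBF2, among 10108 genes of at least 5 CPM, were DICER1, which cuts microRNA precursors, the WNT pathway tumour suppressor APC and the zinc finger gene ZNF121. Their centred log2 CPM differed from that of ZDBF2 by a root mean square of 0.18, 0.22 and 0.23. DICER1 had 6.04, 5.32 and 6.41 CPM in talazoparib libraries, against 21, 34.1 and 33.3 CPM in controls, with control replicate 1 again the lowest control. These are matches in profile only. Like ZDBF2, all 3 are poor in GC and long. Their GC decile had a median log2 fold change of -0.66. Their length deciles had medians of -0.65 for DICER1 and APC and -0.47 for ZNF121. Log2 fold changes were -2.31 for DICER1, -2.25 for APC and -2.08 for ZNF121, and -1.18, -1.27 and -1.29 trend-removed. The part of composition in this likeness was not tested.

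MEST (chromosome 7, 130486171 to 130506465) encodes a protein of the hydrolase fold family in the endoplasmic reticulum and is known as a gene of mesoderm and fat growth in mouse. It stood at 51.7, 52.3 and 50.6 CPM with talazoparib, against 80.5, 90.2 and 90.2 CPM in controls. The 3 talazoparib libraries lay close together and all below the lowest control, with a log2 fold change of -0.75 ± 0.08 (SE), or 1.69-fold lower. Its GC decile had a median of -0.34 and its length decile one of 0.05, and the trend-removed value was -0.56 ± 0.06. Its span is crossed by COPG2 on the opposite strand, with 1602 to 1977 reads a library, and by MESTIT1, an antisense RNA with 0 to 7. The strand setting of the counting is not given in the sources used here, so reads in shared stretches cannot be assigned.

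PEG10 (chromosome 7, 94656325 to 94669695) derives from a retrotransposon and keeps a viral type of frameshift between its reading frames. SGCE (chromosome 7, 94524204 to 94656572, opposite strand) encodes epsilon-sarcoglycan, a membrane glycoprotein whose loss from the paternal copy causes myoclonus dystonia. They lie head to head and their annotated spans overlap by 248 bases at the shared imprinted promoter. PEG10 had 47.5, 37.3 and 44.1 CPM with talazoparib, against 83.1, 107 and 104 CPM in controls. SGCE had 34.6, 30.0 and 36.9 CPM with talazoparib, against 44.7, 53.9 and 54.6 CPM in controls. For both genes talazoparib replicate 2 and control replicate 1 were the lowest of their group.

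The pair did not move by the same amount. The log2 fold change was -1.19 ± 0.12 (SE) for PEG10 and -0.59 ± 0.11 for SGCE, and the ratio of PEG10 to SGCE in CPM was 1.37, 1.24 and 1.20 with talazoparib, against 1.86, 1.99 and 1.91 in controls. Trend-removed, PEG10 stayed lower at -0.71 ± 0.07 and SGCE stood at 0.03 ± 0.06. With GC alone removed SGCE stood at 0.11, and with length alone removed at -0.47, still called lower. SGCE has 39.7% GC, in a decile with a median log2 fold change of -0.66, and PEG10 has 44.8% GC, in a decile with a median of -0.34. The length decile medians were -0.10 for SGCE and -0.28 for PEG10. On either side of the pair, the nearest genes tested beyond it were CASD1 (-0.10 ± 0.22, not past edgeR's test; 0.65 trend-removed), which the SGCE span overlaps, and the imprinted PPP1R9A (-1.68 ± 0.18, adjusted p = 1.94e-05 by edgeR's quasi-likelihood test; -0.62 trend-removed).

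PLAGL1 (chromosome 6, 143940300 to 144064599), also called ZAC1, encodes a zinc finger transcription factor that slows the cell cycle and regulates other imprinted genes in mouse. It had 7.39, 7.07 and 9.31 CPM with talazoparib, against 8.12, 9.0 and 8.83 CPM in controls. The groups overlapped, since talazoparib replicate 3 was the highest of all 6 libraries. The log2 fold change was -0.13 ± 0.15 (SE). It was 0.51 ± 0.11 trend-removed, and its GC decile had a median of -0.66.

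PHLDA2 (chromosome 11, 2928273 to 2929455) encodes a small pleckstrin homology protein that restrains placental growth in mouse. It had 137, 146 and 126 CPM with talazoparib, against 100, 77.1 and 83.0 CPM in controls, and every talazoparib library was above every control. The log2 fold change was 0.65 ± 0.10 (SE), or 1.57-fold higher. PHLDA2 is short (920 nt) and rich in GC (63.1%), in the GC decile with a median of 0.43 and the length decile with a median of 0.35, and its trend-removed value was 0.02 ± 0.05. The imprinted transporter gene SLC22A18, which lies 3027 bp away, had a log2 fold change of 0.57 ± 0.09 (edgeR adjusted p = 0.000287) and 0.06 trend-removed.

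GRB10 (chromosome 7, 50590063 to 50793462) encodes an adapter that binds the insulin and IGF1 receptors and dampens their signal. It had 24.6, 27.5 and 22.4 CPM with talazoparib, against 21.7, 21.3 and 20.9 CPM in controls. In CPM the groups lay close together without overlap, and on the deposited FPKM they overlapped, with talazoparib replicate 3 at 1.611 and control replicate 2 at 1.614. In CPM the control libraries were closer together than the talazoparib libraries. The log2 fold change was 0.22 ± 0.11 (SE), 0.57 ± 0.09 trend-removed, 0.18 with GC alone removed and 0.91 with length alone removed. The deposited length of GRB10 is 13876 nt, while its longest protein-coding transcript in GENCODE 29 has 5032 nt. Its length term thus rests on a length that no annotated protein-coding transcript has. Deposited lengths also exceeded that transcript for GNAS (7520 against 4029 nt), SGCE (4539 against 3474), MEST (3766 against 2505), ZDBF2 (11791 against 10303) and PEG10 (6629 against 6618). For PLAGL1 and PHLDA2 they did not.

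GNAS (chromosome 20, 58839718 to 58911192) encodes the stimulatory G protein alpha subunit, which couples receptors to cAMP production, and its upstream starts give further imprinted transcripts that the count table does not separate. It had 1244, 1270 and 1143 CPM with talazoparib, against 1097, 982 and 1029 CPM in controls. The lowest talazoparib library stood just above the highest control, and the log2 fold change was 0.23 ± 0.08 (SE). Trend-removed it was 0.11 ± 0.05, with GC alone removed -0.12 and with length alone removed 0.64, so its direction turned with the trend that was taken out. Its call as higher also ended without talazoparib replicate 1 (0.22) or 2 (0.21) and without control replicate 2 (0.16) or 3 (0.19).

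**Figure D2:**
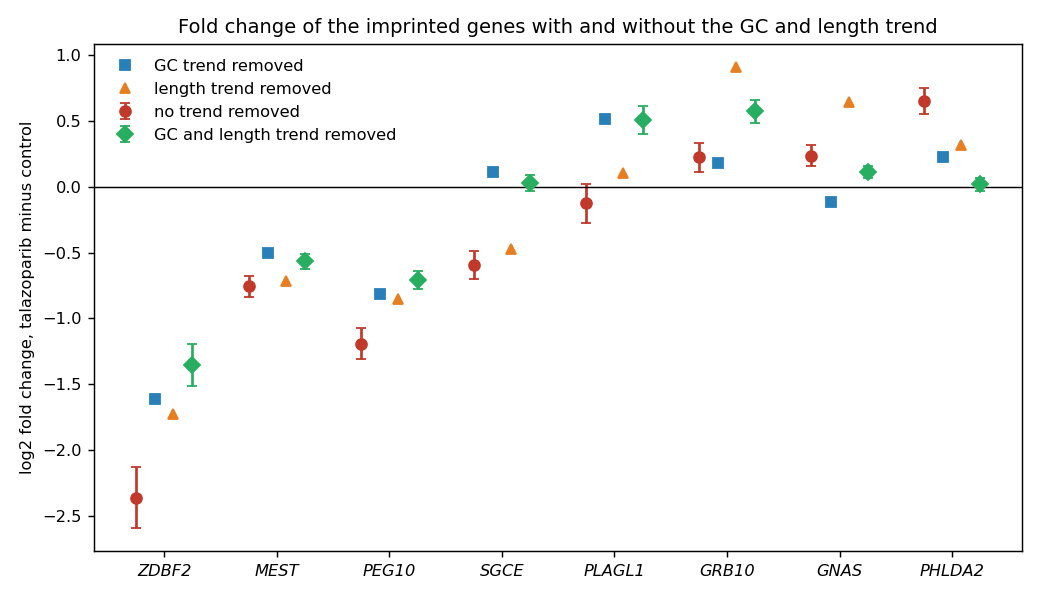
Log2 fold change, talazoparib minus control, of the 8 genes without trend removal and with the GC trend, the length trend or both removed. Error bars are SE of the edgeR fit, shown for the fits with no trend and with both trends removed. ZDBF2, MEST and PEG10 stay below 0 in all 4 fits, SGCE and PHLDA2 move to 0.03 and 0.02 with both removed, and PLAGL1 and GRB10 move to 0.51 and 0.57.

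With both trends removed, edgeR called 3 of the 8 lower (ZDBF2, MEST, PEG10), 2 higher (GRB10, PLAGL1) and 3 not past the threshold, beside 44.2% of all genes called, 21.9% higher and 22.2% lower. As before, the choice of genes used this contrast, and nothing is read from these counts.

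**Figure D3:**
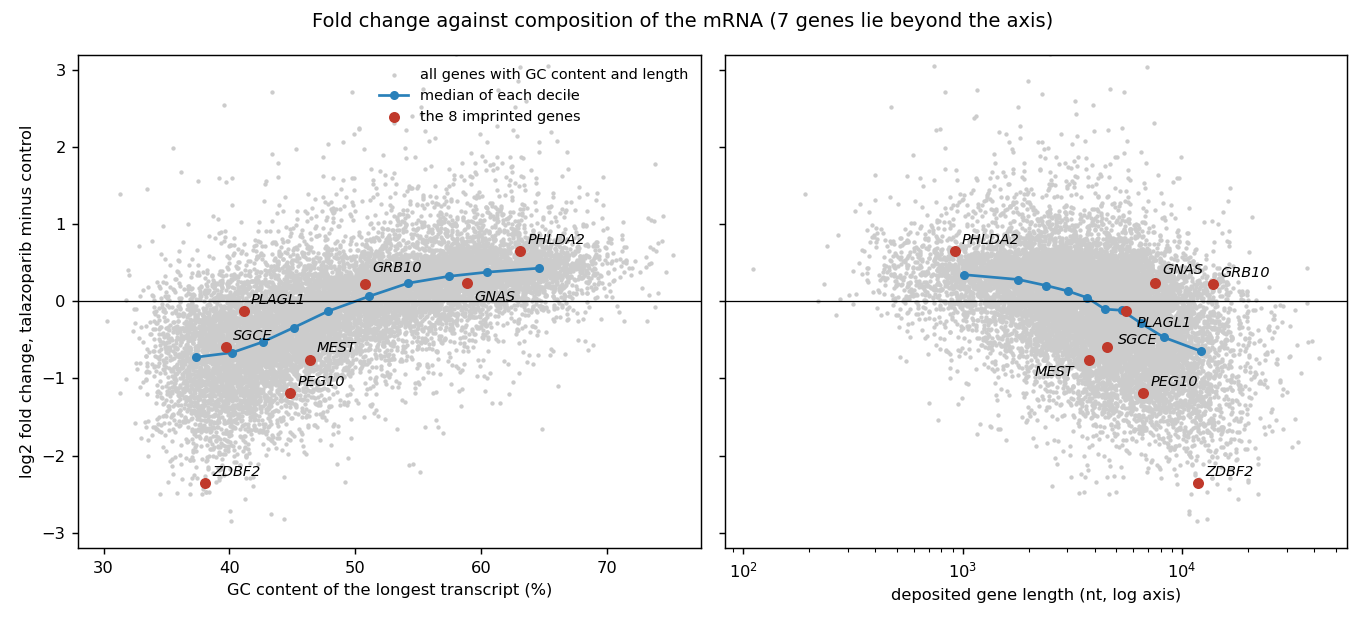
Log2 fold change, talazoparib minus control, of 13695 genes (grey) against GC content (left) and deposited length (right, log axis), with decile medians (blue) and the 8 imprinted genes (red); 7 genes lie beyond the axis. ZDBF2, PEG10 and MEST lie below the decile medians in both panels. SGCE lies at -0.59 beside a GC decile median of -0.66 and a length decile median of -0.10.

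Levels of the 8 genes are given here per deposited length, as FPKM. Deposited lengths exceed the longest protein-coding transcript most for GRB10 (13876 against 5032 nt) and GNAS (7520 against 4029 nt). The order below, that of GRB10 and PLAGL1 included, therefore depends on the length used. With talazoparib the order was GNAS (158 ± 5.10 FPKM, SD, n = 3), PHLDA2 (144 ± 6.89), MEST (13.3 ± 0.0919), SGCE (7.28 ± 0.909), PEG10 (6.33 ± 0.841), GRB10 (1.74 ± 0.140), PLAGL1 (1.39 ± 0.247) and ZDBF2 (0.148 ± 0.0395). In controls it was GNAS (141 ± 4.07 FPKM), PHLDA2 (96.6 ± 10.8), MEST (23.7 ± 2.12), PEG10 (15.2 ± 2.40), SGCE (11.6 ± 1.53), PLAGL1 (1.6 ± 0.128), GRB10 (1.57 ± 0.0350) and ZDBF2 (0.802 ± 0.224). Libraries of neighbours in this order overlapped for SGCE and PEG10 and for GRB10 and PLAGL1 with talazoparib, and for PLAGL1 and GRB10 in controls, and were separate for the other neighbours. Within each library, the ratio of PEG10 to SGCE in FPKM was 0.941, 0.851 and 0.820 with talazoparib, against 1.27, 1.36 and 1.31 in controls. On FPKM, PEG10 thus stood below SGCE in every talazoparib library and above it in every control library. That switch in order rests on the deposited lengths (6629 nt for PEG10 and 4539 nt for SGCE). In CPM, PEG10 stood above SGCE in every library of both groups.

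Of 58 other imprinted genes listed from textbook knowledge, 45 had a row, 26 were tested and the 13 without a row were not analysed here. By edgeR's test 4 rose (15.4%, against 26.8% of all genes) and 10 fell (38.5%, against 29.9%), with a median log2 fold change of -0.10 against 0.00 over all genes tested. Of 19 untested genes, 8 had no count in any library, among them DLK1, PEG3 and MAGEL2, and IGF2, the fetal growth factor, had 3 to 5 reads with talazoparib and 2 to 14 in controls. The kinase gene SGK2 rose to 1.45 ± 0.209 CPM with talazoparib, against 0.569 ± 0.0608 CPM in controls (log2 fold change 1.35 ± 0.28; adjusted p = 0.0016, edgeR; 1.12 trend-removed). SLC22A18, BLCAP (0.42; 0.22 trend-removed) and FAM50B (0.39; -0.09 trend-removed) also rose. The largest falls by well-counted genes were in PPP1R9A, a neuronal actin-binding gene (3.36 ± 0.386 CPM with talazoparib and 10.8 ± 1.99 CPM in controls), and INPP5F, an inositol phosphatase gene (9.62 ± 0.183 CPM with talazoparib and 21.3 ± 2.45 CPM in controls; log2 fold change -1.14 ± 0.12, -0.50 trend-removed).

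The remaining falls were in SNHG14 (-0.84), ZNF331 (-0.77), UBE3A (-0.70), the retinoblastoma gene RB1 (-0.67), L3MBTL1 (-0.56), IPW (-0.55), NAP1L5 (-0.50) and COPG2IT1 (-2.39 ± 0.72, from 0 to 4 reads with talazoparib and 10 to 19 in controls). SNHG14 runs antisense to the ubiquitin ligase gene UBE3A, so reads in stretches that these genes share cannot be told apart without strand. IPW lies within SNHG14, and reads in their shared stretches cannot be assigned here either. The same holds for COPG2IT1, an RNA from within COPG2. Trend-removed, ZNF331 (-0.26) and L3MBTL1 (-0.65) stayed lower, UBE3A was higher (0.32), and SNHG14 (-0.03), RB1 (-0.02) and NAP1L5 (-0.19) did not pass. Calls were lost for COPG2IT1 without control replicate 1 (-2.06), FAM50B without control replicate 3 (0.32) and L3MBTL1 without control replicate 2 (-0.49). The call for NAP1L5 ended without talazoparib replicate 1 or 2 or control replicate 2 or 3 (-0.54 to -0.43), and that for IPW without any single library except talazoparib replicate 3 (-0.65 to -0.38). NAP1L5 also lost its call with DESeq2 (-0.49) and with no filter on low counts (-0.50). IPW also lost its call under upper-quartile (-0.53) and total count scaling (-0.62). In this trend-removed fit 4 of 24 genes were higher and 5 lower, beside 21.9% and 22.2% of all genes.

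**Figure D4:**
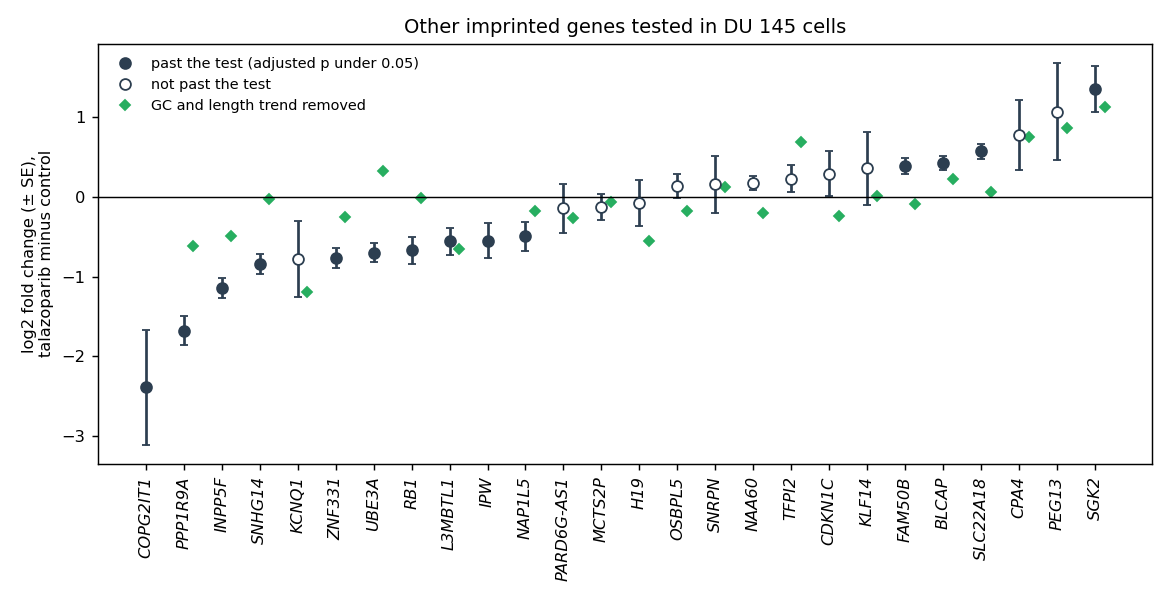
Log2 fold change, talazoparib minus control, of the 26 other imprinted genes tested, with SE, from lowest to highest along the axis, filled where edgeR's adjusted p was under 0.05, and the trend-removed value as a diamond. PPP1R9A, INPP5F, L3MBTL1 and ZNF331 lie below 0 and SGK2 and BLCAP above 0 in both fits. UBE3A and FAM50B are among the genes that change side.

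The other imprinted genes were also split by the expressed copy, a split chosen after the values were seen. Among 9 paternally expressed genes 1 rose (11.1%, against 26.8% of all genes) and 5 fell (55.6%, against 29.9%), with a median of -0.50. Among 12 maternally expressed genes 1 rose (8.33%) and 3 fell (25%), with a median of 0.15. The median GC content was 49.9% in the first and 58.6% in the second, and trend-removed the medians were -0.06 and -0.10. The value of -0.06 rests on 7 genes, since IPW and COPG2IT1, which both fell, had no GC value. It is therefore not for the same set as -0.50.

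Of 20 listed genes that set or keep imprints, 17 were tested, with a median log2 fold change of -0.41. Among these 17, 11 fell (64.7%, against 29.9% of all genes) and 3 rose (17.6%, against 26.8%), or 1 without control replicate 3. Their median deposited length of 11003 nt falls in the longest decile, where 63% of genes were lower. The part of length in this share was not tested beyond the trend-removed fit. The gene with the largest fall was ATRX, a chromatin remodeller (2.14 ± 0.846 CPM with talazoparib and 8.97 ± 1.96 CPM in controls; log2 fold change -2.06 ± 0.27; adjusted p = 9.09e-05 by edgeR). SMCHD1, needed for silencing of the inactive X and of some imprinted clusters, fell to 14.7 ± 3.81 CPM with talazoparib, against 59.9 ± 11.8 CPM in controls (-2.02 ± 0.19). The heterochromatin gene CBX5 (-1.23) and TET3 (-0.96), which oxidises methylcytosine, fell as well, and all 4 stayed lower trend-removed (-1.07, -1.05, -0.33 and -0.66). Trend-removed, 9 of the 17 were lower and none was higher, beside 22.2% and 21.9% of all genes. The maintenance methyltransferase DNMT1 stood at 510 ± 28.8 CPM with talazoparib and 502 ± 5.02 CPM in controls (edgeR adjusted p = 0.792) and was lower trend-removed (-0.15), and ZFP57 had 0 to 1 read in any library.

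Relatives of the 8 genes gave further comparisons. Of 9 adapters related to GRB10, receptors and partners, 7 fell (77.8%, against 29.9% of all genes) and 1 rose (11.1%, against 26.8%). Their median deposited length of 8022 nt falls in a decile where 55.4% of genes were lower. Trend-removed, 5 were lower and 0 higher, beside 22.2% and 21.9% of all genes. The paralogue GRB14 fell to 0.286, 0.210 and 0.245 FPKM with talazoparib, against 0.740, 0.734 and 0.714 FPKM in controls (log2 fold change -1.49 ± 0.23, edgeR adjusted p = 0.000187; -1.61 trend-removed). The ubiquitin ligase gene NEDD4 (-1.78; -0.90 trend-removed), the receptor gene IGF1R (-0.73; -0.42) and IRS2 (-0.58; -0.67), which carries the signal of both receptors, also fell. Among 27 G alpha and cAMP pathway genes 7 rose (25.9%, against 26.8% of all genes) and 12 fell (44.4%, against 29.9%). Their median deposited length of 6961 nt falls in a decile where 44.9% of genes were lower. Trend-removed, 7 were higher and 5 lower, beside 21.9% and 22.2% of all genes. CREB1, which binds the cAMP response element (-0.57; 0.48), and PRKAR1A, a regulatory subunit of protein kinase A (-0.36; 0.30), chosen after their values were seen, were lower without and higher with trend removal. Of the 4 with the smallest adjusted p, the G alpha genes GNAI3 (-1.06; -0.26 trend-removed) and GNA13 (-1.43; -0.66) fell, the adenylyl cyclase gene ADCY6 rose (0.51; 0.46 trend-removed) and PRKAR2A, a regulatory subunit of protein kinase A, fell (-0.46; -0.01).

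Of 6 tested genes of the sarcoglycan and dystroglycan complex, 2 fell (33.3%, against 29.9% of all genes). Trend-removed, 3 were higher and 1 lower, beside 21.9% and 22.2% of all genes. The falls were in UTRN (-1.58, and -0.65 trend-removed) and SNTB2 (-0.99, and -0.16 trend-removed). DAG1, the dystroglycan gene, was not past the test (0.14). SGCE's partner SGCB was not past the test (-0.21) and was higher trend-removed (0.42). Both relatives of PLAGL1 fell, PLAG1 (-1.81 ± 0.28; -0.98 trend-removed) and PLAGL2 (-0.45 ± 0.09; -0.38), where PLAGL1 itself stood at -0.13. PHLDA3, a p53 target related to PHLDA2, rose (0.66 ± 0.13; 0.24 trend-removed, not past the test), and PHLDA1 was not past the test (-0.19) and higher trend-removed (0.27). Of 9 tested genes that, like PEG10, derive from retrotransposon Gag sequences, RTL8B (1.01), RTL8C (0.44), LDOC1 (0.38) and RTL8A (0.27) rose (44.4%, against 26.8% of all genes) and PNMA2 fell (-0.46). The RTL8B groups overlapped, with 30 to 100 reads with talazoparib and 26 to 35 in controls. The call for RTL8A ended under total count scaling (0.20), the replicate block (0.27) and without talazoparib replicate 1 (0.26), control replicate 2 (0.17) or control replicate 3 (0.25). Trend-removed, 4 of the 9 were lower and none was higher, beside 22.2% and 21.9% of all genes. RTL8A (-0.29) and RTL8C (-0.13) had turned direction.

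Beyond PPP1R9A, CASD1 and SLC22A18, the nearest tested neighbours moved in either direction. Beside ZDBF2, EEF1B2 was higher (0.25; 0.06 trend-removed) and ADAM23 lower (-0.28; 0.21), where ZDBF2 stood at -2.36. The call for EEF1B2 ended without talazoparib replicate 1 or 2 or control replicate 2 or 3 (0.16 to 0.25), and that for ADAM23 without any single library except control replicate 1 (-0.31 to -0.26). For ADAM23 the call also ended under upper-quartile scaling (-0.26), DESeq2 size factors (-0.27) and limma-voom (-0.27). Neither other filter on low counts (-0.28 with none, -0.27 at a minimum of 50) nor either FPKM fit (-0.34 and -0.28) kept it. Beside PLAGL1, LTV1 fell (-0.96; -0.57) and SF3B5 rose (0.40; -0.16). Beside GRB10, FIGNL1 (-1.21; -0.23) and COBL (-0.40; -0.29) fell, where GRB10 stood at 0.22. CEP41 and KLF14 beside MEST, BET1 beside SGCE, NPEPL1 and NELFCD beside GNAS and NAP1L4 beside PHLDA2 were not past edgeR's test.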

How the data were processed

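Per the submitters' processing notes, Trimmomatic, HISAT2, HTSeq and Cufflinks were used with the GRCh38 build, and their versions, the annotation and the strand setting were not found in the labels. The authors deposited whole-number counts per gene symbol and FPKM values. Gene lengths were recovered from the quotient of each count, its FPKM and the library total. Tests on the counts used edgeR 4.0.16 in R 4.3.3, with filterByExpr at a minimum count of 10, TMM scaling, a robust quasi-likelihood fit and Benjamini-Hochberg adjustment at 0.05. CPM uses TMM-adjusted library sizes, errors are SD, and SE of a log2 fold change is its size divided by the square root of F. The GC and length trend of each library was modelled by natural splines of log2 deposited length and of GC content (5 degrees of freedom each). It was used as an offset, for 13695 genes. GC content is that of the longest protein-coding GENCODE 29 transcript, or of the longest transcript where a gene has none. Both fits were also run on simulated counts. The main fit recovered 50% of 1.5-fold, 77.6% of 2-fold and 100% of 4-fold changes, with 15 false calls and 14311 genes tested. Of 13589 unchanged genes given the libraries' own trend, 6341 were called without the offset and 0 with it. That 0 cannot test the offset, since the same splines made the simulated trend. DESeq2 1.42.0, limma 3.58.1, other scalings and filters, FPKM fits, a replicate block and removal of each library were alternatives. The 8 genes and all lists were chosen with earlier results of these data known. Genes named are the 8, other imprinted genes that passed, up to 4 genes of each other list with the smallest adjusted p, the nearest tested neighbours and the 3 profiles nearest to ZDBF2. DNMT1, ZFP57, RTL8B, CREB1, PRKAR1A, the imprinted genes with few or no counts and the genes used as cell type markers were named beyond this. The result for 1 marker gene is not reported here.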

Additional observations from a re-analysis of the deposited data

How the results depend on the processing

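Removing the GC and length trend moved more values than any other setting, whether both were removed, GC alone or length alone (the last 2 chosen after seeing the data). In that order ZDBF2 stood at -1.35, -1.61 and -1.72, PEG10 at -0.71, -0.81 and -0.85, PLAGL1 at 0.51, 0.51 and 0.11, GNAS at 0.11, -0.12 and 0.64, and PHLDA2 at 0.016, 0.22 and 0.31. In the same order MEST stood at -0.56, -0.51 and -0.72, SGCE at 0.030, 0.11 and -0.47, and GRB10 at 0.57, 0.18 and 0.91. ZDBF2 was -1.84 on log2(FPKM + 0.1) and -0.64 on log2(FPKM + 1). With both removed, 5 other imprinted genes were lower, 0 imprint regulators higher, and the direction turned for genes that include SGCE, PLAGL1, CREB1 (0.48), PRKAR1A (0.30), ADAM23 (0.21), CASD1 (0.65), CEP41 (0.48), FAM50B (-0.095), PHLDA1 (0.27), RTL8A (-0.29), RTL8C (-0.13), SF3B5 (-0.16), SGCB (0.42) and UBE3A (0.32). Why these turned was not tested beyond the 3 fits.

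Same-numbered libraries showed no positive correlation of note in their deviations from the group means (-0.094, -0.173 and 0.004). With so few libraries in each group, these values cannot show whether same-numbered libraries shared a culture or day. With the replicate block 3419 genes were higher and 4161 lower, ZDBF2 stood at -2.35, and the calls for GNAS (0.23), ADAM23 (-0.27), NAP1L5 (-0.50) and RTL8A (0.27) ended. With the replicate block and both trends removed, 2564 genes were higher and 2568 lower, with 4 other imprinted genes lower, 0 regulators higher and 14 relatives lower. In that fit ZDBF2 stood at -1.34, MEST at -0.56, PEG10 at -0.71, SGCE at 0.030, GRB10 at 0.57, GNAS at 0.11, PLAGL1 at 0.50 and PHLDA2 at 0.017, and ADAM23 at 0.22, CASD1 at 0.62, CEP41 at 0.47, FAM50B at -0.094, PHLDA1 at 0.28, RTL8A at -0.29, RTL8C at -0.13, SF3B5 at -0.16, SGCB at 0.42 and UBE3A at 0.32.

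With each library left out in turn, ZDBF2 ranged from -2.57 to -2.17, MEST from -0.85 to -0.74, PEG10 from -1.34 to -1.10, SGCE from -0.72 to -0.51, GRB10 from 0.14 to 0.29, GNAS from 0.16 to 0.28, PLAGL1 from -0.26 to -0.05 and PHLDA2 from 0.54 to 0.73. Counts ranged from 2622 to 3973 genes higher and 3731 to 4576 lower, 3 to 5 other imprinted genes higher and 7 to 10 lower, 1 to 3 regulators higher and 9 to 11 lower, and 9 to 16 relatives higher and 21 to 26 lower. ZDBF2 rests on 56 to 90 reads per talazoparib library, which limits its precision.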
